A study of Mus musculus with 2 samples.

Results

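The Mir322 cluster is a row of microRNA genes on the minus strand of the mouse X chromosome, and 5 of its genes, Mir322, Mir503, Mir351, Mir542 and Mir450b, are described here. They were chosen by name from the 1973 microRNA genes of the deposited tables, and all 5 have a row. MicroRNA sequencing, which reads RNA under 30 nt per the labels, was done on kidneys of healthy mouse embryos of the strain B6NCrl at embryonic day 16.5, with male and female embryos pooled. The series holds 1 group of 2 libraries, biological replicates 1 and 2. Replicate 2 came from 41 embryos, and no number of embryos is given for replicate 1. Both libraries carry the same donor record, so the spread between them may be partly technical, and no comparison between conditions exists. Sense reads in gene rows numbered 7128703 in replicate 2 and 5317669 in replicate 1. Levels are given as counts per 1000000 of these reads (CPM). Of genes known from kidney, Mir10a, Mir10b, Mir30a, Mir192, Mir194-2 and Mir204 each reached 1 CPM or more in replicate 2 and in replicate 1. Their means ran from 95.2 CPM for Mir194-2 to 154681 CPM for Mir10a. The 4 genes listed for other tissues were detected too, so detection does not set the kidney genes apart and is no check of the tissue label. Liver Mir122 had 171 CPM in replicate 2 and 210 CPM in replicate 1, pancreatic Mir375 had 537 CPM in replicate 2 and 867 CPM in replicate 1, and of the striated muscle genes Mir206 averaged 277 CPM and Mir208a 5.09 CPM. Their part in the levels given here was not tested. Kidneys were sequenced whole, so fewer cells of a type and less RNA per cell cannot be told apart.

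A microRNA is cut from a hairpin RNA as a short mature strand, and it lowers the output of messenger RNAs that match its seed, here bases 2 to 8 of the mature strand. Either arm of the hairpin, named 5p and 3p, can yield a mature strand. Mouse miR-322, the homologue of human miR-424, and miR-503 are known for lowering cell cycle genes such as Cdc25a, cyclin D1 and cyclin E1, and miR-322 has the seed of the miR-15/16 family. miR-351 has the seed of miR-125, a family related to the worm developmental regulator lin-4. In human cells miR-542-3p is known to lower the survival factor survivin. At this stage the kidney still forms nephrons from dividing progenitor cells.

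The 5 genes have 10 annotated mature sequences in RefSeq (GRCm38.p6), 21 to 24 nt long, with 10 distinct seeds. No pair of them has the same bases 2 to 8, and 6 of the seeds occur in no other mature sequence of the RefSeq table. The sequences below are written 5′ to 3′ with the seed in capitals, and they show which members resemble microRNAs made elsewhere in the genome. The first set is miR-322-5p with the miR-15/16 family members measured here, and miR-503-5p, whose seed departs from theirs at its last base.
miR-322-5p: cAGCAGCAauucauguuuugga
miR-15a-5p: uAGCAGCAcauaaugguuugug
miR-15b-5p: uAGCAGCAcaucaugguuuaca
miR-16-5p: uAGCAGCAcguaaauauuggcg
miR-195a-5p: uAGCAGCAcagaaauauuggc
miR-503-5p: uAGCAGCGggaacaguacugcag
Counted from the 5′ end, miR-322-5p and miR-503-5p differ within the seed by the substitution A8G, and they are equal at 11 of 22 positions. miR-322-5p and miR-15a-5p are equal at 15 of 22 positions. The second set is miR-351-5p with the miR-125 family.
miR-351-5p: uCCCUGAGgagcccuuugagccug
miR-125a-5p: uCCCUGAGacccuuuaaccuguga
miR-125b-5p: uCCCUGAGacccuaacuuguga
miR-351-5p and miR-125a-5p first differ at G9A, just after the seed, and are equal at 10 of 24 positions. The third set holds the strands of Mir450b beside those of its neighbour Mir450-1, which gives miR-450a-5p and miR-450a-1-3p.
miR-450b-3p: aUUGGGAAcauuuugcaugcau
miR-450a-1-3p: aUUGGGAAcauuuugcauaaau
miR-450b-5p: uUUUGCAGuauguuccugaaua
miR-450a-5p: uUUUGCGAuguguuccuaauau
The 3p strands share their seed and differ only by G19A and C20A, at 20 of 22 equal positions. The 5p strands have different seeds, separated by A7G and G8A. Mir542 stands apart from all of these. The seed of its 3p strand is in no other sequence of the RefSeq table, and that of its 5p strand is also found in Mir6966, which had 0 reads in both libraries.
miR-542-3p: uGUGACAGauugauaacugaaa

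The genes lie within 6353 nt, chrX:53047997-53054349 on mm10. Mir322 comes first in the direction of transcription, at chrX:53054255-53054349. The gene counts take in the whole hairpin, so reads of both arms are summed, as the hairpin of Mir322 shows with both mature strands in capitals.
Mir322 hairpin: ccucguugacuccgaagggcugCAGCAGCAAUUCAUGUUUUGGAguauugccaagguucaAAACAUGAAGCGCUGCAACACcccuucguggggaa
Mir503 follows after 200 nt, at chrX:53053984-53054054, and Mir351 after another 630 nt, at chrX:53053255-53053353. A gap of 3767 nt leads to Mir542, at chrX:53049403-53049487. Beyond it stand Mir450-2, Mir450-1 and Mir450b, the last at chrX:53047997-53048078. None of the 7 hairpins overlaps another gene of GENCODE M21, in which they lie between genes, and the long noncoding gene Gm28730 fills part of the gap before Mir542. RefSeq draws the long noncoding gene C430049B03Rik longer, at chrX:53053112-53057190. In that annotation it spans 3 of the hairpins, those of Mir351, Mir503 and Mir322. The exons and introns of that gene were not analysed here.

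Levels did not follow the order along the locus. Mir322, the first hairpin, had 39894 CPM in replicate 2 and 42017 CPM in replicate 1. It ranked 7 among the 1973 genes, in rows that leave out reads mapping to several places and so count genes with copies elsewhere too low. Mir503, 200 nt further on, had 976 CPM in replicate 2 and 727 CPM in replicate 1. Mir351, the third hairpin, had 6673 CPM in replicate 2 and 4847 CPM in replicate 1, so both libraries placed it above Mir503, which lies nearer to Mir322. Mir542, across the gap, had 741 CPM in replicate 2 and 682 CPM in replicate 1. Mir450b, the last hairpin, was the lowest of the 5 genes in both libraries, with 236 CPM in replicate 2 and 187 CPM in replicate 1. The order of the 5 levels was the same in both libraries, and Mir351, Mir503, Mir542 and Mir450b ranked 29, 86, 93 and 136.

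**Figure D1:**
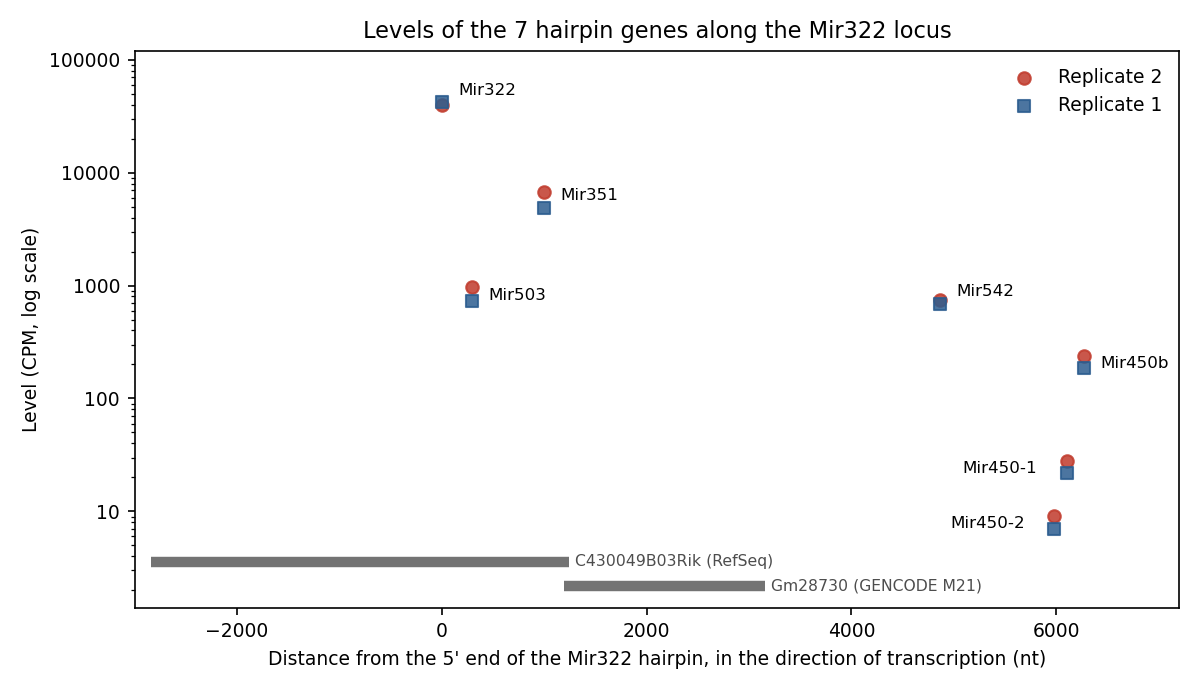
Level of each hairpin gene of the locus in CPM (vertical log axis) against its distance in nt from the 5′ end of the Mir322 hairpin, in the direction of transcription (horizontal axis), with circles for replicate 2, squares for replicate 1 and grey bars for the extent of 2 long noncoding genes. Mir322 is highest at 0 nt, Mir503 at 295 nt lies below Mir351 at 996 nt, and Mir450-2, Mir450-1 and Mir450b lie close together at the far end on different levels.

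The first 3 hairpins summed to 47544 CPM in replicate 2 and 47591 CPM in replicate 1. Mir542 and Mir450b, beyond the gap, summed to 976 CPM in replicate 2 and 868 CPM in replicate 1. The ratio of these sums was 48.7 in replicate 2 and 54.8 in replicate 1. Most of it was Mir322, which held 82.2% of the reads of the 5 genes in replicate 2 (exact 95% interval 82.1 to 82.3) and 86.7% of them in replicate 1 (86.6 to 86.8). Mir351 held 13.8% (13.6 to 13.9) in replicate 2, and in replicate 1 it held 25774 of 257693 reads (interval 9.89% to 10.1%). The other 3 genes held less: Mir503 averaged 1.76% ± 0.362, Mir542 1.47% ± 0.0850 and Mir450b 0.436% ± 0.0707 (SD, n = 2). These intervals cover counting error only, and for each of the 5 genes the intervals of the 2 libraries did not overlap. The percentages are parts of 1 sum, so a lower part of Mir322 raises the others. They are not 5 separate differences, and the share of all genes without overlap was not computed.

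The size of a difference between members was set beside the spread between replicates. Over the 181 genes averaging 100 CPM or more, the pooled replicate SD of log2(CPM + 1) was 0.22. A pair of genes was said to differ by more than the spread when their mean ratio exceeded 1.34-fold, the 95% range that this SD gives. This SD compares each gene with itself, so it leaves out any error that both libraries share and that differs between genes. Such error was not measured, so the folds and shares given here are of reads and not of molecules. Of the 10 pairs of members, 9 exceeded it. The share among pairs of other genes was not computed. Genes at 100 CPM or more ran up to 154681 CPM, so the count is not read as particular to the cluster. Going down the order of levels, Mir322 stood above Mir351 by 5.98-fold in replicate 2 and 8.67-fold in replicate 1, a mean log2 ratio of 2.85 ± 0.38 (SD, n = 2). Mir351 stood above Mir503 by 6.83-fold in replicate 2 and 6.66-fold in replicate 1, at 2.75 ± 0.03. Mir503 stood above Mir542 by 1.32-fold in replicate 2 and 1.07-fold in replicate 1, a mean of 0.25 ± 0.22, so these neighbours in level did not differ beyond the spread. Mir542 stood above Mir450b by 3.14-fold in replicate 2 and 3.65-fold in replicate 1, at 1.76 ± 0.15. An exact sign-flip test over 2 libraries cannot go below p = 0.5, so no test of these ratios is given.

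**Figure D2:**
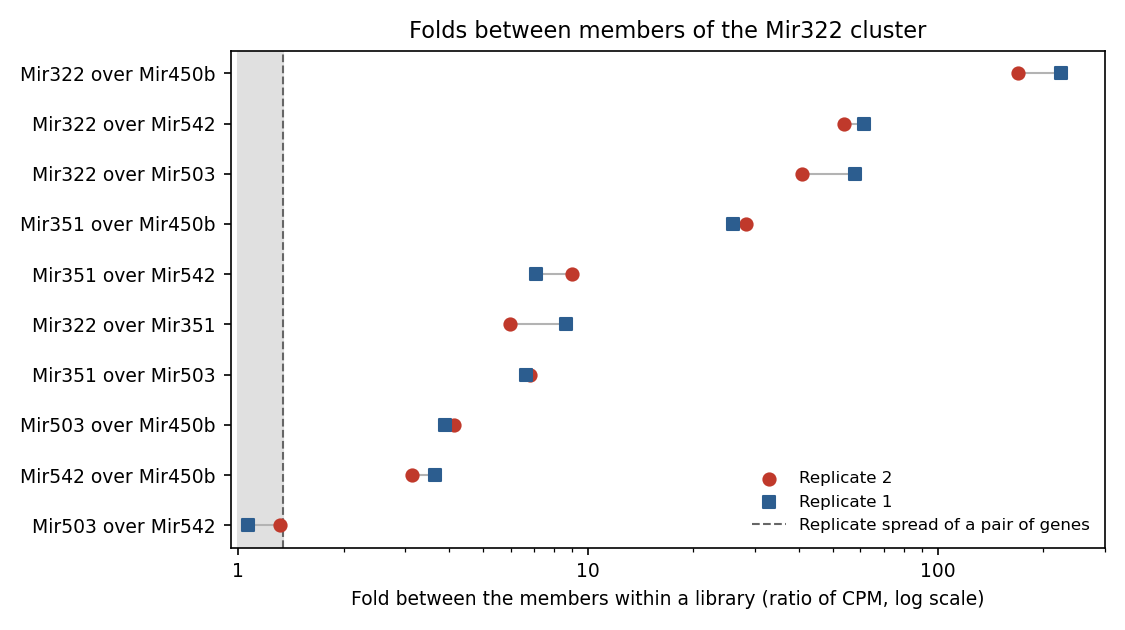
Fold between the members of each of the 10 pairs within a library (horizontal log axis, ratio of CPM), with circles for replicate 2 and squares for replicate 1; the dashed line marks 1.34-fold, and the shaded band the range below it. Only Mir503 over Mir542 lies in the band, in both libraries, and Mir322 over Mir450b lies farthest out, at 169-fold in replicate 2 and 225-fold in replicate 1.

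Mir322 and Mir503 lie next to each other on the locus, yet Mir322 exceeded Mir503 by 40.9-fold in replicate 2 and 57.8-fold in replicate 1. Ratios within a library do not depend on how the libraries are scaled. For 8 of the 10 pairs the ratio changed between the libraries by more than counting error, and for none of the 10 by more than the 1.81-fold that the replicate spread allows for a change of a ratio. The 2 that stayed within counting error were Mir351 over Mir503, which was 0.04 higher in replicate 2 on the log2 scale (95% counting interval -0.02 to 0.10), and Mir503 over Mir450b, 0.09 higher (-0.04 to 0.22). Mir322 over Mir351 changed most, with a difference of -0.54 (-0.56 to -0.51), and so was lower in replicate 2.

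By seed, Mir322 was set against the miR-15/16 family, which is made on other chromosomes and is known for restraining the cell cycle and for lowering the survival gene Bcl2. Among the measured genes 10, Mir322 included, have an annotated mature strand with the seed of miR-322-5p, of which 6 reached a mean of 10 CPM and 4 stayed under 1 CPM. Mir15a had 3203 CPM in replicate 2 and 2859 CPM in replicate 1. Its neighbour Mir16-1 had 1268 CPM in replicate 2 and 1227 CPM in replicate 1, and Mir15b had 1235 CPM in replicate 2 and 922 CPM in replicate 1. Mir195a averaged 573 ± 16.5 CPM and Mir16-2 285 ± 43.0 CPM (SD, n = 2), so each of these genes lay far below Mir322 in both libraries. Mir322 stood above Mir15a, the next gene of the group, by 12.5-fold in replicate 2 and 14.7-fold in replicate 1, more than the replicate spread. Mir322 held 85.8% of the reads of these genes in replicate 2 (exact 95% interval 85.7 to 85.9) and 87.8% of them in replicate 1 (87.7 to 88.0). Gene rows sum both arms, so the part of these reads that bears the seed was not measured. Mir16-1 and Mir16-2 share the same mature miR-16-5p, and the gene rows leave out reads that map to several places. The level of that microRNA may thus be too low and the share of Mir322 too high, by an unknown amount. The intervals do not cover this. Mir497, another gene with this seed, is not part of this share.

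The seed of miR-503-5p, AGCAGCG, is in no other mature sequence of the RefSeq table, though its bases 2 to 7 are those of the miR-15/16 family. Mir503 had 0.791 times the level of Mir15b in replicate 2 and 0.789 times in replicate 1, a difference within the replicate spread. It stood above Mir195a by 1.67-fold in replicate 2 and 1.29-fold in replicate 1, with a mean of 1.47-fold that exceeded the spread. In replicate 1 alone the 1.29-fold was under the 1.52-fold that the spread allows for a single library, so this difference rests on replicate 2.

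In the gene rows, Mir351 led the genes with the seed of the miR-125 family, microRNAs known for roles in blood stem cells and in differentiation. It had 6673 CPM in replicate 2 and 4847 CPM in replicate 1, as above. Mir125a had 2988 CPM in replicate 2 and 2545 CPM in replicate 1. Mir125b-1 had 344 CPM in replicate 2 and 307 CPM in replicate 1, and Mir125b-2 had 266 CPM in replicate 2 and 275 CPM in replicate 1. Mir351 thus stood above every other measured gene with this seed, and above Mir125a by 2.23-fold in replicate 2 and 1.90-fold in replicate 1, more than the replicate spread. It held 65.0% of the reads of the group in replicate 2 (exact 95% interval 64.6 to 65.3) and 60.8% of them in replicate 1 (60.3 to 61.3). These too are reads of both arms, not of the strand with the seed alone. Mir125b-1 and Mir125b-2 share the mature miR-125b-5p, so their levels may be too low and the share of Mir351 too high in the same way. The lead of Mir351 over miR-125b as a whole is thus uncertain.

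**Figure D3:**
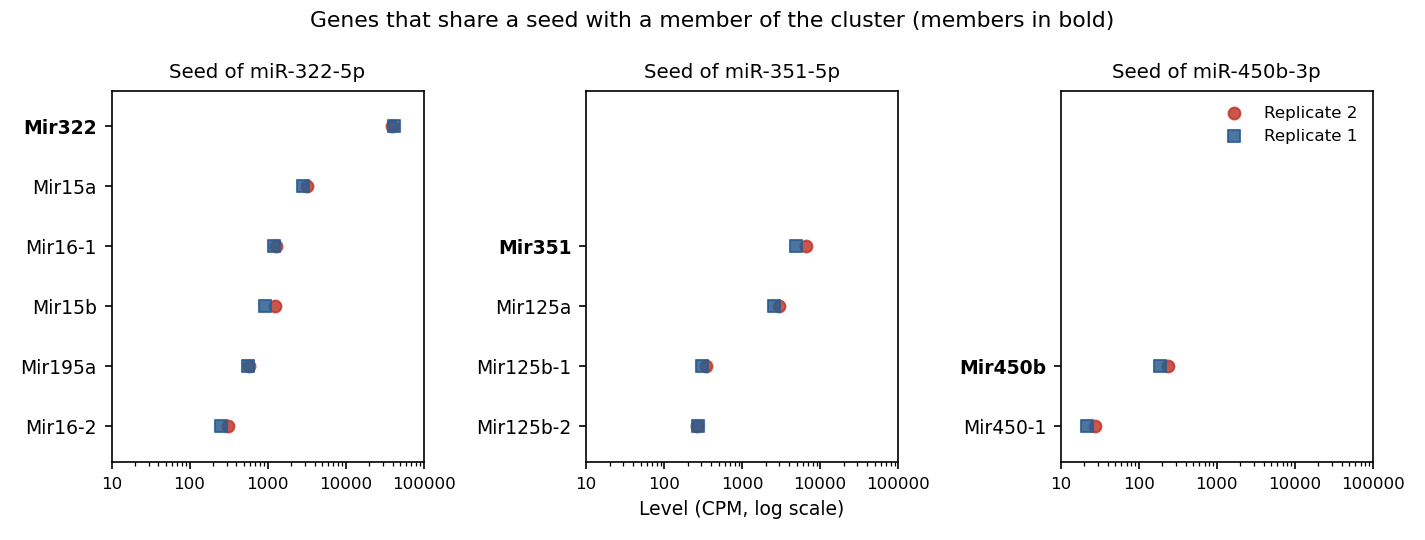
Level in CPM (horizontal log axis) of every gene with a mean of at least 10 CPM that shares the seed of miR-322-5p, miR-351-5p or miR-450b-3p (1 panel each), with members of the cluster in bold, circles for replicate 2 and squares for replicate 1. The member is the highest gene in each panel, farthest ahead in the first.

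Mir450b shares the seed of its 3p strand with Mir450-1, 75 nt before it on the locus. Mir450b had 236 CPM in replicate 2 and 187 CPM in replicate 1, against 27.8 CPM in replicate 2 and 22.0 CPM in replicate 1 for Mir450-1. The fold was 8.48 in replicate 2 and 8.50 in replicate 1, and Mir450b held 89.5% of the reads of its seed group in both libraries (replicate 2, 88.0 to 90.8, and replicate 1, 87.5 to 91.2, as exact 95% intervals). Only the 3p strands share the seed, and the gene rows sum both arms. The part of these reads that bears the seed was not measured. Mir450-2 had 9.12 CPM in replicate 2 and 6.96 CPM in replicate 1, the lowest of the 7 hairpins. Mir450-1 and Mir450-2 give the same miR-450a-5p, so their own levels and the fold are uncertain. Of the 5 genes described here, Mir450b was the only one whose annotated hairpin shares a stretch of 18 nt with another microRNA gene, which is Mir450-1. Those of Mir322, Mir503, Mir351 and Mir542 share none with another microRNA gene of GENCODE M21.

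Reads of the 5 genes came from the annotated strand. On the opposite strand 2 reads were counted in replicate 2, both at Mir322, against 345886 sense reads, and 0 in replicate 1 against 257693. Over all gene rows the opposite strand held 2.24% of the reads in replicate 2 and 2.14% in replicate 1.

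For each member the genes of most like level are those ranked next above and next below it by mean CPM over the 2 libraries. Mir322 stood between the endothelial Mir126a (52093 ± 762 CPM) and the smooth muscle gene Mir143 (30355 ± 7211 CPM). Mir351 stood between Mir652 (5761 ± 67.3 CPM) and Mir744 (5595 ± 424 CPM). Mir503 stood between Mir96 (859 ± 8.09 CPM) of sensory epithelium and Mir483 (806 ± 105 CPM) of the Igf2 intron. Mir542 stood between the epithelial Mir205 (717 ± 71.1 CPM) and Mir674 (705 ± 4.06 CPM), and Mir450b between Mir350 (219 ± 32.3 CPM) and Mir32 (209.9 ± 22.7 CPM; SD, n = 2 for each gene named). Mir143 alone differed from its member by more than the replicate spread, with Mir322 standing 1.37-fold above it against the limit of 1.34-fold. In replicate 2 alone the fold was 1.13, under the single-library limit of 1.52, and in replicate 1 alone it was 1.66, so this difference rests on replicate 1. The other 9 neighbours lay within the spread, and 7 of them stood above the member in one library and below it in the other. The neighbours were picked for likeness in this same mean, so these counts follow largely from the choice.

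Between the libraries the log2 ratios of the members had different signs, but no ratio between members changed by more than the replicate spread. After TMM scaling, Mir351 was higher in replicate 2 than in replicate 1, with a log2 ratio of 0.32 ± 0.01 (counting error, adjusted p = 6.06e-181). Mir503 was higher by 0.28 ± 0.03 (adjusted p = 8.9e-22) and Mir450b by 0.19 ± 0.06 (adjusted p = 0.00369). Mir322 was lower in replicate 2, at -0.22 ± 0.004 and an adjusted p no higher than 1e-300, the smallest value written. Mir542 stood at -0.02 ± 0.03 (adjusted p = 0.634). These p-values are from a two-sided exact binomial test, adjusted over the 455 genes with at least 10 reads, which takes in counting error only and compares these pools. The binomial test passes smaller ratios at higher read counts. All 5 members average above 100 CPM, as do only 181 of the 455 genes. Shares over all genes are therefore no background of like level, and such a background was not computed. In that test 4 of the 5 members passed, where 33.6% of all genes did. Of the members 3 were higher in replicate 2, against 15.8% of all genes, and 1 was lower, against 17.8%. The biological coefficient of variation between the pools was not estimated from these libraries but assumed to be 0.2, and which ratios pass depends on it. The edgeR exact test was also run with this value. In it 0 of the 5 members passed, with an adjusted p of 1 for each and unadjusted p-values from 0.438 to 0.956, and 0.659% of all genes did.

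The median log2 ratio of the 5 members was 0.19, beside 0.02 over all genes tested and 0.0006 over the 181 genes at 100 CPM or more. The ratios of the members had different signs, so their median does not describe each of them. Of the 21 genes at 10000 CPM or more, Mir322 among them, 15 were lower in replicate 2, and the median ratio of the 21 was -0.16. What part the level of a gene has in its ratio was not tested. With library totals in place of TMM, which shifts every log2 ratio up by 0.14, Mir542 turned to 0.12 (exact binomial test, adjusted p = 0.00042). Over the alternatives its adjusted p ran from 0.00042 to 1. With library totals all 5 members passed, and Mir322 was still lower in replicate 2, at -0.07. Among the 181 genes at 100 CPM or more, 21 had a ratio farther from 0 than that of Mir351.

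**Figure D4:**
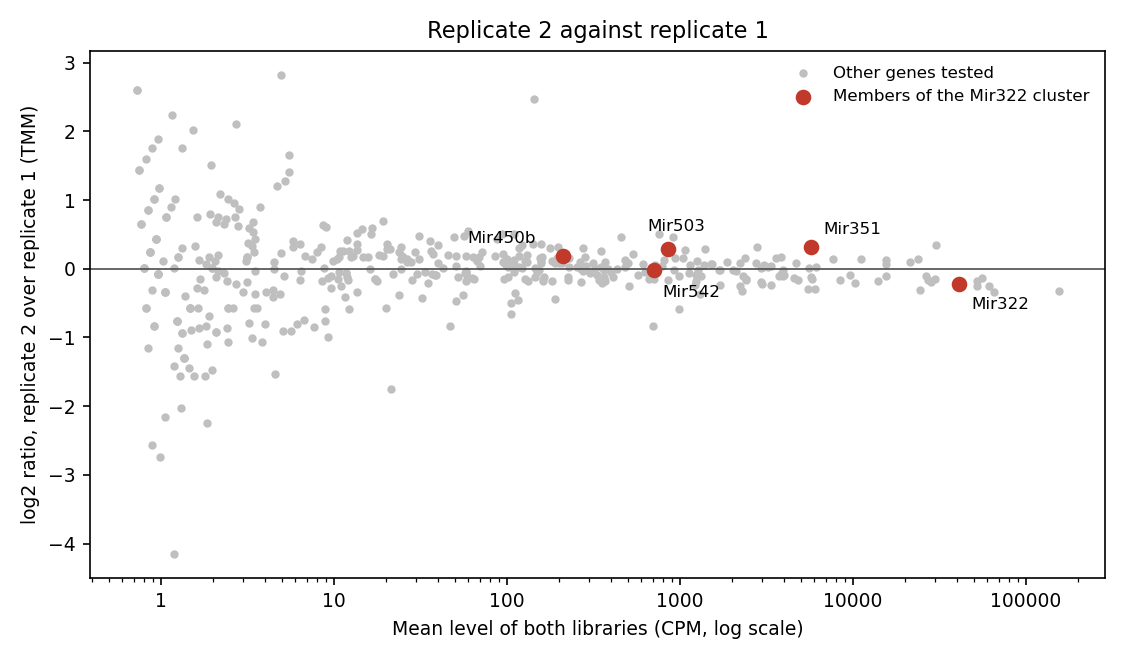
log2 ratio of replicate 2 over replicate 1 after TMM scaling (vertical axis) against the mean level in CPM (horizontal log axis) for 454 of the 455 genes tested, with the 5 members of the cluster in red; 1 gene with 0 reads in replicate 1 has no ratio and is not drawn. Mir351, Mir503 and Mir450b lie above 0, Mir542 near 0 and Mir322 below 0.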

How the data were processed

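The authors' deposited values are raw counts per microRNA gene on mm10 with annotation M4, per the text files that come with them. No aligner, counting program or trimming is named there (not given in the sources used here). Of the 3 columns of counts, the first equals the sum of the other 2 in all 1973 gene rows, and the second was used as the strand of the gene. The 4 rows that name no gene held 51.5% of all reads in replicate 2 and 55.2% in replicate 1, reads mapping to several places among them (25.3% in replicate 2, 28.0% in replicate 1), and stayed out of library sizes. Symbols came from GENCODE M21 by Ensembl identifier (1894 rows matched) and mature sequences from RefSeq GRCm38.p6 by symbol (916 rows, with 95.1% of the reads).

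CPM, ratios within a library and exact Clopper-Pearson 95% intervals were computed with Python 3.11.15 and SciPy 1.17.1. Intervals treat reads as independent draws and cover counting error only. Reads are not independent molecules, so the intervals may be too narrow. The 3 reads that a count of 0 allows come to 0.421 CPM for replicate 2 and 0.564 CPM for replicate 1. The comparison of the libraries used the exact conditional binomial test (two-sided) after TMM (edgeR 4.0.16, R 4.3.3). Its p-values were Benjamini-Hochberg adjusted over genes with at least 10 reads summed. The binomial test was tried on counts simulated with counting error only, which cannot show how it behaves with variation between pools. The quasi-likelihood test needs more than 1 library a side. Alternatives were library totals, DESeq2 1.42.0 size factors, no filter, and the edgeR exact test. Reads are under 30 nt per the labels, so counts were not divided by length. The genes named are the members, the listed families, genes with a shared seed at 10 CPM or more and the nearest in level. The members and lists were chosen with earlier results of these data known.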

Additional observations from a re-analysis of the deposited data

Results flagged for a closer look

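Reads outside the strand that was counted were found at 1 row that touches the seed group of Mir322. The row of Mir497b held 5096 reads on its opposite strand in replicate 2 and 3102 in replicate 1, and 0 on its own strand in both. It stands out because these reads lie above the 3 reads that a count of 0 allows. Mir497, a gene of the miR-15/16 family with the seed of miR-322-5p, is annotated on that opposite strand. Whether these are reads of Mir497 was not tested.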

How the results depend on the processing

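The order of the 5 levels and the side of the spread on which each of the 10 pairs lay were the same with log2(CPM + 1), with reads of either strand and in each library alone. With bases 2 to 7 as the seed, Mir503 joins the group of Mir322. The cluster then held 87.0% of the group on average and Mir322 alone 85.3%, against 86.8% with bases 2 to 8, and the groups of Mir351 and Mir450b stayed as they were. Reads are summed over both arms, so the choice of arms could not be tested on the shares. With the opposite-strand reads of the Mir497b row counted for Mir497, the share of Mir322 was 85.6%. This alternative, the share of Mir322 alone and the values of single libraries for genes outside the cluster were chosen after seeing the data. Levels depended on the library size used. The sum of the 5 genes was 48548 CPM with TMM-scaled sizes, 47428 CPM with either strand, 57369.9 CPM without the reads of Mir10a and 22608 CPM of all reads in the table. Without Mir10a, Mir322 had 48470.3 CPM, Mir542 841 CPM and Mir450b 249.7 CPM. Of all reads in the table, Mir322 had 19075 CPM, Mir351 2702 CPM, Mir503 399 CPM, Mir542 332 CPM and Mir450b 99.0 CPM. These shifts follow from the changed library sizes. Between the libraries, Mir542 was 0.12 higher in replicate 2 with library totals, against -0.02 with TMM. Of the 153 genes called with TMM 47.1% were higher in replicate 2, and of the 193 called with library totals 78.8% were. The edgeR exact test called 3 of the 455 genes and 0 members, where the binomial test called 153 and 4, and 18 genes but 0 members lay under an unadjusted p of 0.05 in it. Calls of the members were the same with DESeq2 size factors and without a filter. No library could be left out of the ratio between libraries, which needs both. No paired analysis was possible because there is 1 group. Depth gave 994 reads for Mir450b in replicate 1, the fewest of any member.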
